A study of Mus musculus with 2 samples.

Results

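Nutrient and metal transporter genes of the solute carrier (Slc) families were examined for the H3K27ac-linked chromatin contacts that they make in mouse microglia after stroke. The set held every protein-coding mouse gene whose symbol begins with Slc1a, Slc2a, Slc7a, Slc16a, Slc30a, Slc38a or Slc39a followed by a digit, together with Slc11a1, Slc11a2 and Slc40a1 and without the astrocyte glutamate transporters Slc1a2 and Slc1a3. This gave 85 of 21883 protein-coding genes. One of them, Slc7a6os, met the rule by its symbol alone: it is the opposite-strand neighbour of Slc7a6 and is not a transporter.

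HiChIP joins DNA ends that lie together in the nucleus and enriches, with an antibody, those that carry a histone mark. Here the mark was H3K27ac, which is found at active promoters and enhancers. The sham group was 1 library from wild-type C57BL/6J mice that had a sham operation. The other group was 1 library from wild-type C57BL/6J males 6 days after MCAO, in which the middle cerebral artery is blocked for 60 min and then reopened, a model of ischaemic stroke. The labels give male sex and an age of 8 to 24 weeks for the mice that had MCAO and do not state these for the sham mice. Each library was made from 200000 to 300000 cells of a hemisphere sorted as CD45int CD11bint, the gate for microglia; the sources used here do not say how many animals were pooled. With 1 library in each group no test between sham and day 6 was possible, so every comparison below is between these 2 libraries, and every interval covers counting error only.

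Cells take up glucose through the GLUT proteins of the Slc2a family and move lactate, pyruvate and ketone bodies through the Slc16a family. Amino acids enter and leave through Slc1a, Slc7a and Slc38a carriers, several of which exchange one amino acid for another. Zinc is moved out of the cytosol by Slc30a proteins and into it by Slc39a proteins, while Slc11a1 and Slc11a2 carry divalent iron and manganese and Slc40a1 is the iron exporter ferroportin. Microglia use these carriers for fuel, for glutathione synthesis through imported cystine, and to handle the iron of the erythrocytes and debris that they engulf.

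Each deposited list names pairs of 10 kb bins, called interactions, with the number of contacts (joined read pairs) between them. A gene was given every interaction with 1 anchor bin on its span or within 1 kb of it. The sham list held 19061 interactions with 501608 contacts and the day 6 list 42905 interactions with 1074041 contacts, 2.25 and 2.14 times as many. The total number of contacts that the caller modelled ran the other way, at 3629250 in sham and 2258259 at day 6, so the longer list had fewer modelled contacts behind it. A log2 ratio below is the gene's share of called contacts at day 6 over that in sham, with a prior of 5 contacts. A gene was said to have more or fewer contacts by the rule of size when that ratio was at least 1 or at most -1, and it was measured only if it had at least 3 interactions in 1 list. All 13 microglia markers examined, among them P2ry12, Tmem119 and Cx3cr1, had interactions in both libraries. They had 3066 contacts in sham and 3905 at day 6, or 611 and 364 per 100000 called contacts. By the rule of size 6 of the 13 had fewer (46.2%, beside 10.3% of all measured genes) and none more (beside 39.1%). The marker lists of 7 other cell types summed to 12.6 to 69.6 per 100000 in sham and 9.50 to 59.2 at day 6, with endothelial markers at 23.3 and 42.9 and neutrophil markers at 12.6 and 22.1. Of the 42 genes on those 7 lists 17 had interactions in sham and 22 at day 6. Of 16 measured 3 had more contacts and 3 fewer, beside 39.1% and 10.3% of all measured genes. Those with more were Pecam1 (35 contacts in sham and 181 at day 6), Flt1 (28 and 138) and Mog (0 and 52). Those with fewer were Rbfox3 (132 and 71), Slc17a7 (85 and 31) and Ccr2 (144 and 77). Between the limits, Mbp had the most contacts of the 42 genes (189 and 432), and others were Gfap (87 and 156), Csf3r (63 and 205), Cd4 (131 and 185) and Mrc1 (45 and 170). Aqp4, Gja1, Cldn5, Tek, S100a8, S100a9, Ly6g, Cd3e and Snap25 had no interaction in either list. The part of these marker differences in the results was not tested, and fewer cells of a type and fewer contacts per cell cannot be told apart in such bulk samples.

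Most transporter genes took part in at least 1 called interaction, and more of them did so at day 6 than in sham. In sham 44 of the 85 had an interaction (51.8%, against 43.0% of all protein-coding genes), and at day 6 59 had one (69.4%, against 61.3%). Interactions in both lists were found for 42 genes. Another 17 had interactions at day 6 alone, 27.9% of the 61 with any interaction, against 31.7% of all genes with any. Slc30a9, with 35 contacts, and Slc38a11, with 19, each had 1 interaction in sham and none at day 6; these 2, named after their values were seen, are 3.28% of 61, against 2.64%. The remaining 24 were in neither list: Slc1a1, Slc1a6, Slc2a2, Slc2a4, Slc2a10, Slc2a12, Slc7a3, Slc7a4, Slc7a9, Slc7a10, Slc7a12, Slc7a13, Slc7a14, Slc16a4, Slc16a8, Slc16a14, Slc30a8, Slc30a10, Slc38a3, Slc38a4, Slc38a5, Slc38a7, Slc38a8 and Slc39a12. Several of these are known from other tissues, such as Slc2a2 and Slc30a8 of the pancreatic beta cell and Slc2a4, the insulin-responsive glucose carrier of muscle and fat. A list holds only interactions past the caller's threshold, so a gene outside it may still have contacts.

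By the rule of size, 17 of the 43 measured transporter genes had more contacts at day 6. That is 39.5%, beside 39.1% of all 9635 measured genes, so the share is near the background. Only Slc16a1 and Slc40a1 had fewer, 4.65% beside 10.3% of all measured genes, and the call of Slc40a1 depended on the scaling. Of the 17, 9 had interactions in both lists: Slc16a7, Slc39a1, Slc39a5, Slc38a10, Slc38a1, Slc7a1, Slc11a2, Slc38a2 and Slc2a9. The other 8 had interactions at day 6 alone: Slc2a8, Slc39a4, Slc1a5, Slc30a1, Slc39a3, Slc16a3, Slc30a2 and Slc1a4. The median log2 ratio of the measured transporter genes was 0.59, beside 0.55 for all measured genes. For the 35 that were in both lists the median was 0.18, beside 0.17.

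**Figure D1:**
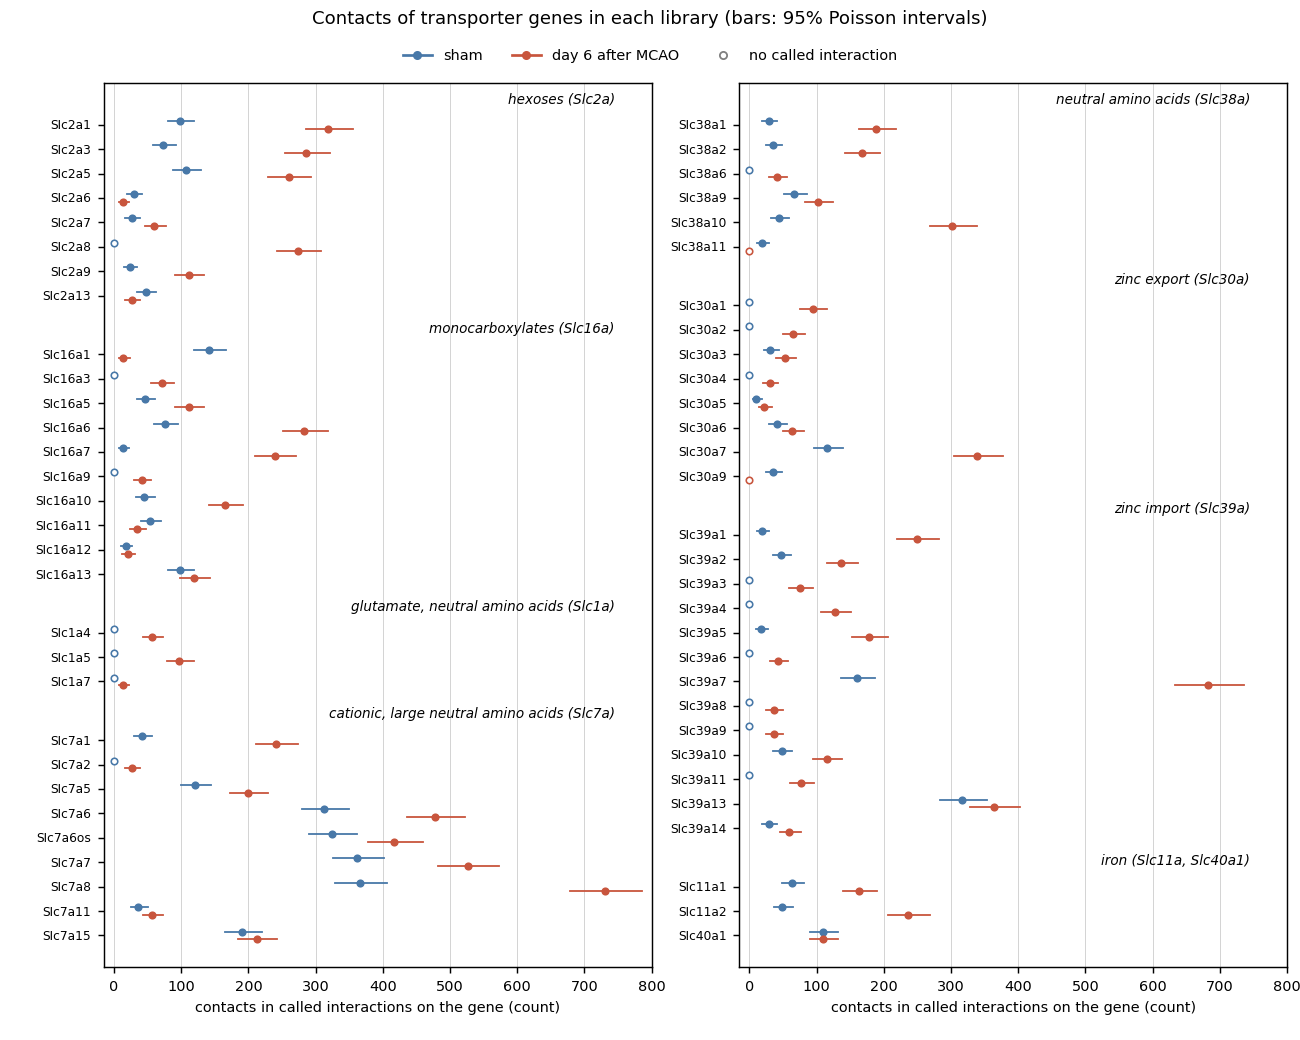
Contacts (counts, horizontal axis) in called interactions on the transporter genes shown by name that had any interaction, by family, in the sham library (blue) and the day 6 library (red), with exact 95% Poisson intervals; open circles mark a gene with no called interaction. Contact counts were higher at day 6 for most genes, as the day 6 list held 2.14 times as many contacts in all, while Slc16a1 had 141 in sham and 14 at day 6 and Slc40a1 had 110 in each.

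How far the scaling decides these calls can be read from the medians. Scaled by the contacts of the interactions present in both lists, the median was 1.65 for the transporter genes and 1.56 for all measured genes, with 28 transporter genes having more contacts (65.1%, beside 66.3% of all genes) and 1 fewer (2.33%, beside 1.93%). Scaled by the modelled contacts, the medians were 2.32 and 2.20, with 38 having more (88.4%, beside 84.0%) and 1 fewer (2.33%, beside 0.820%). Slc16a1 was the 1 gene with fewer under both of these. All measured genes moved with the scaling, so a ratio is best read against the median of all measured genes under the same scaling.

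**Figure D2:**
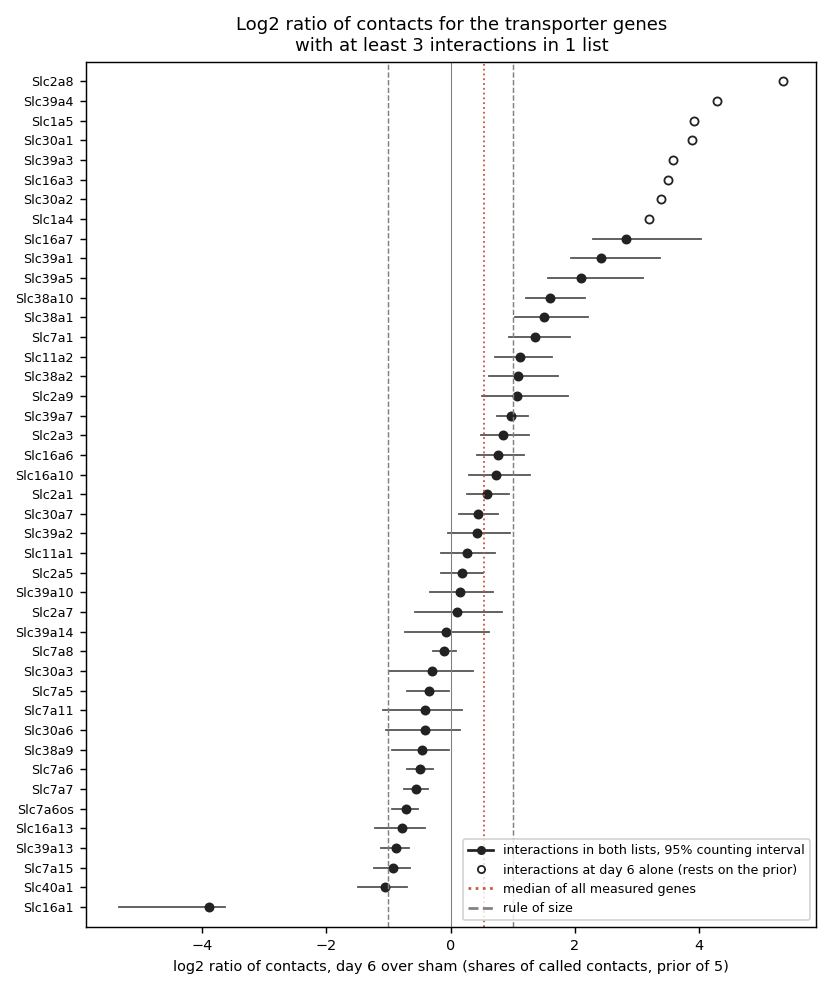
Log2 ratio of contacts, day 6 over sham (horizontal axis), for the 43 transporter genes with at least 3 interactions in 1 list; bars are 95% counting intervals, dashed lines the rule of size and the dotted line the median of all measured genes, 0.55. The 8 open circles are genes without a sham interaction, whose ratio rests on the prior, and Slc16a1 stands apart at the low end at -3.89.

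Promoter sequences are shown here for 6 transporter genes whose start-site bin differed between the libraries or made a contact described below. They are the 250 bases before a RefSeq start site in the build GRCm38.p6, read 5′ to 3′ on the strand of the gene, with matches to the searched motifs in capitals. The motifs, searched on both strands, were the AP-1 site TGANTCA, the PU.1 site GAGGAAGT, the ATF4 element TGATGNAA, the antioxidant response element TGACNNNGC, the metal response element TGCACNC or TGCGCNC, and the hypoxia response element core ACGTG. A match is a description of letters and not of a bound site, and the window is a small part of the 10 kb bin in which contacts were counted. The cystine importer Slc7a11 is shown for its pair of ATF4 elements, the lactate exporter Slc16a3 for its pair of hypoxia cores, the zinc exporter Slc30a1 for its metal response element, the glucose carrier Slc2a1 for a start-site bin that entered the list at day 6, Slc39a13 for its contacts with Spi1, and Slc16a1 for a start-site bin that was in the sham list alone.
Slc7a11, chr3:50443614-50443863, minus strand: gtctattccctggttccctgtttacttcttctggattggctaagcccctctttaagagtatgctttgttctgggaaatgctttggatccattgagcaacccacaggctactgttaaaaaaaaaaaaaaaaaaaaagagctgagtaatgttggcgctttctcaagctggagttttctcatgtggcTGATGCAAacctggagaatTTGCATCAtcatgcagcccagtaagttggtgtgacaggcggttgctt
Slc16a3, chr11:120948817-120949066, plus strand: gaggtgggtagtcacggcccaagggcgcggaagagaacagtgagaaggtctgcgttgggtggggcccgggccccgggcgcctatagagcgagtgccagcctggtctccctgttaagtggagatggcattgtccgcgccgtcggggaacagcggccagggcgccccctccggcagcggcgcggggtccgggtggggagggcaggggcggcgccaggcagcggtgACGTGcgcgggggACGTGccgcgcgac
Slc30a1, chr1:191906531-191906780, plus strand: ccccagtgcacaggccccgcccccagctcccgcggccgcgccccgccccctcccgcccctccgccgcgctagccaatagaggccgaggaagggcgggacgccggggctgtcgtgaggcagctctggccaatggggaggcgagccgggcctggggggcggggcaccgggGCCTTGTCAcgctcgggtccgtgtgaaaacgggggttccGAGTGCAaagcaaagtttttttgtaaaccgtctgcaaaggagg
Slc2a1, chr4:119108495-119108744, plus strand: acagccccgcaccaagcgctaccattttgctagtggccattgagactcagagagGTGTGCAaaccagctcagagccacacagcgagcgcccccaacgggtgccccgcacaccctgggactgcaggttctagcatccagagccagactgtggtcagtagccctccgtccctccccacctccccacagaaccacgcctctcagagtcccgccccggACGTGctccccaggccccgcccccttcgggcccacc
Slc39a13, chr2:91070316-91070565, minus strand: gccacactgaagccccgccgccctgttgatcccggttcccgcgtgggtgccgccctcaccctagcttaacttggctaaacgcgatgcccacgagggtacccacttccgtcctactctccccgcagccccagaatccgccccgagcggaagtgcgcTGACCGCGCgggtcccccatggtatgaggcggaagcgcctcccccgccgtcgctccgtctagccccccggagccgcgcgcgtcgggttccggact
Slc16a1, chr3:104638414-104638663, plus strand: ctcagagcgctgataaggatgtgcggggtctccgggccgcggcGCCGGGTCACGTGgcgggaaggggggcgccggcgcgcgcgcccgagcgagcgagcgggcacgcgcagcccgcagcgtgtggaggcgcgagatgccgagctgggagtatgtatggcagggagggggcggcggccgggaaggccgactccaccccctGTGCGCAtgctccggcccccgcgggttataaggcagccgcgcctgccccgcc

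In these windows Slc7a11 held ATF4 elements at -66 to -59 on the strand of the gene and at -47 to -40 on the other strand, counted back from the start site. Slc16a3 held hypoxia cores at -27 to -23 and -14 to -10, and Slc2a1 held 1 at -36 to -32. Slc30a1 had a metal response element at -43 to -37 beside an antioxidant element at -82 to -74. Slc39a13 had an antioxidant element at -95 to -87. In Slc16a1 an antioxidant element at -207 to -199 overlapped hypoxia cores at -200 to -196 on the other strand and at -199 to -195 on the strand of the gene. A metal response element lay at -52 to -46.

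Of the 85 genes, 63 had a RefSeq window and 22 had none, with 78 windows in all. The ATF4 element was found in 3.85% of these windows and in 3.18% of 21262 windows of protein-coding genes, and in 2 of the 63 genes, Slc7a11 and Slc7a7. The hypoxia core was in 26.9% of the transporter windows and 17.8% of all windows, the metal response element in 25.6% and 24.2%, the antioxidant element in 12.8% and 10.4%, and AP-1 in 5.13% and 6.13%. No transporter window held the PU.1 letters, which were in 2.23% of all windows. The median GC content was 57.8% in the transporter windows and 55.6% in all windows. A bin holding such a window had an interaction in sham for 21 genes and at day 6 for 36. For 19 genes it did so in both lists, for 2 in sham alone and for 17 at day 6 alone. In 7 of those 17 the span had interactions in both lists, so that the start-site bin, but not the gene, was new to the day 6 list. The same counts over all genes with a window were not made, and the day 6 list held 2.25 times as many interactions. These start-site counts are therefore not a result about the transporter genes.

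The hexose carriers (Slc2a, 12 genes) had interactions for 7 genes in sham and 8 at day 6. These are 58.3% and 66.7%, against 43.0% and 61.3% of all protein-coding genes. Of the 6 that were measured 2 had more contacts (33.3%, beside 39.1% of all measured genes) and none fewer (beside 10.3%). Slc2a1 (GLUT1), the widespread glucose carrier, on chr4:119108745-119137330, had 4 interactions with 98 contacts (Poisson interval 79.6 to 119) in sham and 11 with 319 (285 to 356) at day 6. Its log2 ratio was 0.59 (0.27 to 0.95), close to the median gene and short of the rule of size. In sham, pairs of 25, 30 and 24 contacts joined Slc2a1 to neighbouring bins without a protein-coding gene, chr4:118990001-119010000, that lie 110 to 130 kb away. The pair of 30 was in the day 6 list too, with 29 contacts. At day 6 the bin of its start site joined the second of these bins with 58 contacts and a bin inside the gene with 72, and neither of these 2 pairs was in the sham list. The start-site bin as a whole had 160 contacts at day 6 and none called in sham.

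Slc2a3 (GLUT3), a high-affinity glucose carrier best known from neurons, had 3 interactions with 73 contacts in sham and 10 with 286 at day 6, log2 0.84 (0.50 to 1.26). Its day 6 partners included the bins of Necap1 with 91 contacts, of Foxj2 with 54 and of C3ar1, the receptor for complement C3a, with 29. Necap1 was a partner in sham as well, with 30 contacts, and no pair of bins was shared. Slc2a5 (GLUT5), the fructose carrier used as a marker of microglia, had 4 interactions with 107 contacts in sham and 15 with 260 at day 6, log2 0.18 (-0.15 to 0.52). Both lists joined Slc2a5 to H6pd, with 33 contacts in sham and 23 and 15 at day 6, and to a bin without a gene 660 kb away, with 19 and 15. Its neighbour Slc2a7 had 1 interaction with 26 contacts and 4 with 60, and at day 6 the 2 genes were joined to each other by 11 contacts over 50 kb.

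Slc2a8 (GLUT8), an intracellular hexose carrier, had none in sham and 6 interactions with 274 contacts (243 to 308) at day 6, the most of any transporter gene absent from the sham list with the flank of 1 kb. With a flank of 5 kb it had 3 sham interactions with 61 contacts and a log2 ratio of 2.16. Of these contacts 171 joined its start-site bin to the next bin but 1, which holds Lrsam1 and Rpl12, and that start-site bin also touches Garnl3. Slc2a9, a urate carrier named here after its values were seen, had 1 sham interaction of 23 contacts and 5 with 111 at day 6, for a log2 ratio of 1.07 (0.51 to 1.89). Slc2a6 had 29 and 13, and Slc2a13, a myo-inositol carrier, had 47 and 26, both on fewer than 3 interactions per list and so not measured; these 2 are also named after their values were seen.

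The monocarboxylate carriers (Slc16a, 14 genes) held both the lowest log2 ratio of the set and one of the highest. Interactions were called for 9 in sham and 11 at day 6 (64.3% and 78.6%, against 43.0% and 61.3% of all protein-coding genes). Of the 6 measured, 2 had more contacts (33.3%, beside 39.1% of all measured genes) and 1 fewer (16.7%, beside 10.3%). Slc16a1 (MCT1), the carrier for lactate, pyruvate and ketone bodies, on chr3:104638664-104658462, had 4 interactions with 141 contacts (119 to 166) in sham and 1 with 14 (7.65 to 23.5) at day 6. The log2 ratio was -3.89 (counting interval without the prior -5.34 to -3.64), and it was -2.95 and -2.36 under the other scalings. In sham its first bins were joined by 34, 46 and 44 contacts to chr3:104670001-104690000, a stretch without a protein-coding gene 30 to 40 kb away, and by 17 contacts to a bin 100 kb to the other side. None of these pairs was called at day 6, when its only interaction was with the bin of Phtf1 and Rsbn1, 680 kb away. The partner stretch itself stayed in the day 6 list through other pairs: its first bin had 5 interactions with 174 contacts in sham and 5 with 78 at day 6, and its second 2 with 79 and 3 with 54. The relative coverage of the 1 anchor bin of Slc16a1 common to both lists was 0.96 in sham and 0.71 at day 6. The bin of its start site, with 34 contacts in sham, was not an anchor at day 6, so its coverage there is not known. The part of coverage in the difference was not tested.

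Slc16a3 (MCT4), the carrier through which glycolytic cells export lactate, showed the opposite placement, with none called in sham and 3 interactions with 71 contacts (55.5 to 89.6) at day 6. All 3 started from the bin of the promoter printed above. They joined it to Fasn, the fatty acid synthase gene, with 26 contacts, to a bin of Fasn and Ccdc57 with 30, and to a bin without a gene 800 kb away with 15. Slc16a7 (MCT2), a high-affinity lactate and pyruvate carrier, had 1 interaction with 13 contacts in sham and 11 with 239 at day 6, log2 2.83 (2.30 to 4.03), the highest ratio among the measured transporter genes in both lists. Of its day 6 interactions 5 ran between bins of the gene itself. Its sham interaction was lost when the flank of 1 kb was left out or the q-value limit was tightened.

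Slc16a6, a ketone body carrier, had 3 interactions with 76 contacts in sham and 11 with 283 at day 6, log2 0.77 (0.43 to 1.18), with Wipi1 as a partner in both lists (27 contacts in sham, 17 and 36 at day 6). With day 6 shortened to the length of the sham list its ratio was -0.45. Slc16a13 had 4 interactions with 98 contacts and 6 with 119, log2 -0.78 (-1.22 to -0.42), and its bins also hold Slc16a11 and Bcl6b. Slc16a10, a carrier of aromatic amino acids named here after its values were seen, had 45 and 165 contacts.

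None of the Slc1a family (5 genes here) was in the sham list, whereas 43.0% of all protein-coding genes were. Interactions at day 6 alone were found for 3, 100% of those with any, against 31.7% of all genes with any. With 5 genes and a longer day 6 list, these shares are not a result about the family. At day 6 Slc1a5 (ASCT2), the exchanger that brings in glutamine, had 4 interactions with 97 contacts (78.7 to 118). Its partners included Meis3 with 20 contacts and Sae1 with 16. Slc1a4 (ASCT1), a carrier of serine and alanine, had 3 interactions with 56 contacts, all from its start-site bin, to Rab1a, Cep68 and a bin without a gene. Slc1a7 had 1 with 13. The glutamate carriers Slc1a1 and Slc1a6 were in neither list. The excluded astrocyte genes had contacts in both libraries: 32 in sham and 127 at day 6 for Slc1a2, and 168 and 261 for Slc1a3.

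The Slc7a family (16 genes) had the most contacts of the families in both libraries and, among the families of more than 1 gene, the lowest median ratio. It held 1754 contacts in sham and 2885 at day 6, with interactions shared between neighbours counted for each gene. The median log2 ratio of its 8 measured genes was -0.45, and 0.58 and 1.24 under the other scalings, each about 1 below the median of all measured genes. Slc7a8 (LAT2), a carrier of neutral amino acids, had 8 interactions with 366 contacts (329 to 405) in sham and 21 with 730 (678 to 785) at day 6, log2 -0.10 (-0.29 to 0.08). Many of its contacts ran within the gene, the strongest with 133 contacts at day 6, and others joined it to Cebpe, a myeloid transcription factor gene. The pair of its start-site bin with a Cebpe bin was in both lists, with 49 contacts in sham and 30 at day 6.

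Slc7a7, which exports cationic amino acids in exchange for neutral ones, had 12 interactions with 362 contacts in sham and 18 with 526 at day 6, log2 -0.55 (-0.76 to -0.36). With lists of equal length the ratio was -1.27. Slc7a6, a close relative, had 8 with 313 and 16 with 477, log2 -0.48 (-0.70 to -0.28). Its opposite-strand neighbour Slc7a6os had 7 with 324 and 14 with 417, log2 -0.73 (-0.95 to -0.52). The 2 genes were joined to each other by 46 contacts in sham and by pairs of 60, 26 and 41 contacts at day 6, and they share a bin, so their counts are not independent.

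By the rule of size 1 of the 8 measured genes of the family had more contacts (12.5%, beside 39.1% of all measured genes). This was Slc7a1 (CAT1), the carrier for arginine and lysine. It had 3 interactions and 42 contacts in sham and 12 with 241 at day 6, log2 1.36 (0.94 to 1.93). A bin without a gene at chr5:148790001-148800000 was its partner in both lists, with 13 and 12 contacts in sham and 23 and 17 at day 6. All 3 sham interactions were lost at the stricter q-value limit. Slc7a2, which supplies arginine to activated macrophages and is named after its values were seen, had none in sham and 1 interaction with 26 contacts at day 6.

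A further 3 genes of the family are described here after their values were seen. Slc7a5 (LAT1), the carrier of leucine and other large neutral amino acids, had all of its 3 sham interactions in the day 6 list too, with 120 contacts in sham and 87 at day 6 in those pairs. They lead to bins without a gene at chr8:121850001-121860000 and chr8:121870001-121880000, 30 to 50 kb from the gene. The whole gene had 120 and 200 contacts, log2 -0.35 (-0.70 to -0.02). Slc7a11 (xCT), which imports cystine in exchange for glutamate, had its only sham interaction, of 36 contacts, in both lists. It runs 40 kb within the annotated span, from the bin of the promoter printed above, and had 25 contacts at day 6, when 2 further interactions brought the gene to 56, log2 -0.42 (-1.09 to 0.19). Slc7a15 had 6 interactions with 191 contacts in sham, all to Hs1bp3, and 8 with 212 at day 6, log2 -0.93 (-1.24 to -0.66). Of the Hs1bp3 pairs 3 were in both lists, with 45, 37 and 26 contacts in sham and 21, 15 and 25 at day 6.

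**Figure D3:**
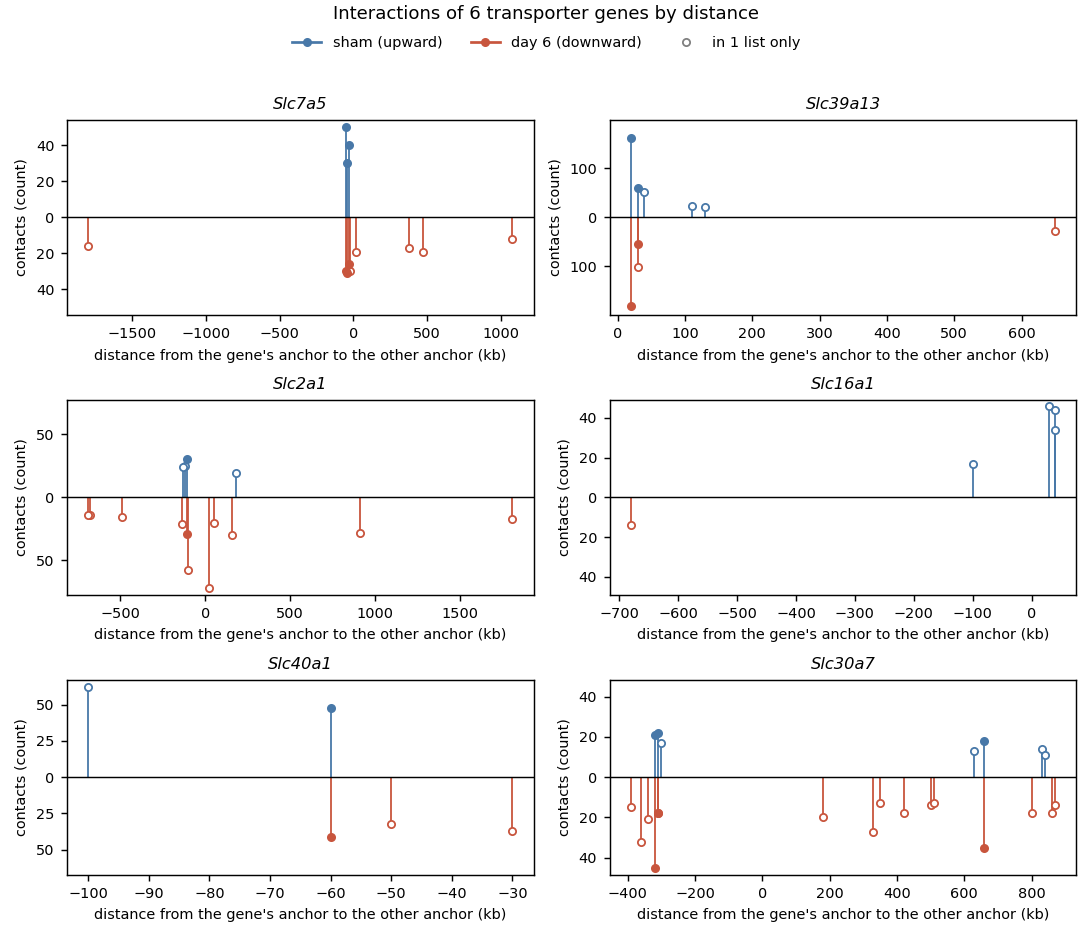
Called interactions of 6 transporter genes, placed by distance from the anchor on the gene to the other anchor (kb, horizontal axis), with the contact count upward for sham (blue) and downward for day 6 (red); filled circles are pairs of bins in both lists, open circles pairs in 1 list. The short pairs of Slc7a5 and the 20 to 30 kb pairs of Slc39a13 are filled, whereas every pair of Slc16a1 is open and its 30 to 40 kb pairs appear in sham alone; axis ranges differ between panels.

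The sodium-coupled neutral amino acid carriers (Slc38a, 11 genes) had 4 measured genes. By the rule of size 3 of these had more contacts (75%, beside 39.1% of all measured genes). Slc38a1 (SNAT1), a glutamine carrier, had 2 interactions with 29 contacts in sham and 8 with 189 at day 6, log2 1.51 (1.04 to 2.22). Its neighbour Slc38a2 (SNAT2), which is induced when amino acids are scarce, had 2 with 35 and 9 with 167, log2 1.09 (0.62 to 1.73). In sham the 2 genes were joined to each other by 16 contacts over 100 kb, a pair that counts for both. At day 6 that pair was not called, and both genes had contacts with 2 further loci: the bin of Arid2 and Gm38469 had 25 and 25 contacts with Slc38a1 and 21 with Slc38a2. The bin of Gm41408 and Scaf11 had 19 and 23 with Slc38a1 and 22 with Slc38a2, and had 19 with Slc38a2 in sham.

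Slc38a10, a carrier of glutamine and glutamate, had 2 interactions with 44 contacts in sham and 11 with 302 at day 6, log2 1.61 (1.22 to 2.17). The kinase gene Aatk was a partner in both lists, with 27 contacts in sham and 30 and 31 at day 6. Contacts with Rptor, which encodes a subunit of the growth-regulating complex mTORC1, were called at day 6 alone, in 3 pairs of 16, 21 and 17. At the stricter q-value limit neither Slc38a1 nor Slc38a10 kept a sham interaction. Slc38a9, the lysosomal arginine sensor upstream of mTORC1, had 4 interactions with 67 contacts and 6 with 102, log2 -0.47, and is named here after its values were seen.

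The zinc exporters (Slc30a, 10 genes) had interactions for 5 genes in sham and 7 at day 6. These are 50% and 70%, against 43.0% and 61.3% of all protein-coding genes. Of the 5 measured, 2 had more contacts by the rule of size (40%, beside 39.1% of all measured genes) and none fewer (beside 10.3%). Slc30a7, which loads zinc into the Golgi, had 7 interactions with 116 contacts (95.9 to 139) in sham and 16 with 339 (304 to 377) at day 6, log2 0.44 (0.14 to 0.77). Of its sham pairs 3 were in the day 6 list, with 61 contacts in sham and 98 at day 6. They join it to chr3:115680001-115690000, which holds no protein-coding gene and lies 310 to 320 kb away, and to the bin of Mfsd14a and Slc35a3 at 660 kb. Slc30a1, the plasma membrane zinc exporter that zinc itself induces, had none in sham and 5 interactions with 94 contacts (76.0 to 115) at day 6, all from its start-site bin. Of these, 31 and 17 contacts lead to Traf5 and 14 to Traf3ip3, both genes of receptor signalling adaptors. Slc30a6 had 1 interaction with 41 contacts and 3 with 64, log2 -0.42. Slc30a2, named after its values were seen, had none in sham and 65 contacts at day 6.

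The zinc importers (Slc39a, 14 genes) had interactions for 7 genes in sham and 13 at day 6. These are 50% and 92.9%, against 43.0% and 61.3% of all protein-coding genes. Of the 13 with any interaction 6 (46.2%, against 31.7% of all genes with any) had them at day 6 alone: Slc39a3, Slc39a4, Slc39a6, Slc39a8, Slc39a9 and Slc39a11. Among the 9 measured, 4 had more contacts by the rule of size (44.4%, beside 39.1% of all measured genes) and none fewer (beside 10.3%). Slc39a1 (ZIP1), a plasma membrane importer, had 1 interaction with 19 contacts in sham and 6 with 249 (219 to 282) at day 6, log2 2.43 (1.94 to 3.37). The day 6 contacts include 89 and 62 with neighbours 20 kb away, and the bins of Slc39a1 also hold Creb3l4 and Crtc2. Slc39a5 had 1 with 17 and 7 with 178, log2 2.10 (1.57 to 3.10), in bins that also hold Ankrd52 and Nabp2. Its day 6 partners included Stat6 with 14 contacts and the bin of Apof and Stat2 with 16. The sham interactions of both genes were lost at the stricter q-value limit. Slc39a4, the importer of intestinal zinc, had none in sham and 5 interactions with 127 contacts (106 to 151) at day 6; with a flank of 5 kb it had 1 sham interaction with 23 contacts. Slc39a3 had none in sham and 4 with 75 at day 6.

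Slc39a7 (ZIP7), which releases zinc from the endoplasmic reticulum, had 7 interactions with 160 contacts (136 to 187) in sham and 22 with 683 (633 to 736) at day 6. Its log2 ratio was 0.98 (0.75 to 1.25), just below the rule of size, and 1.26 with lists of equal length. Per 10 kb bin it was the transporter gene with the most contacts at day 6, at 342. It lies in the major histocompatibility complex on chromosome 17, in bins that also hold Rxrb, Ring1, H2-Ke6 and Col11a2. Its pair with H2-DMb1, a gene of class II peptide loading, was in both lists with 24 contacts in sham and 33 at day 6, while pairs with H2-K1 (88 contacts), with the bin of Daxx and Tapbp (72) and with H2-Oa (47) were called at day 6 alone. Relative coverage of the common anchor bins of Slc39a7 was 1.79 in sham and 3.12 at day 6.

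Slc39a13 (ZIP13), a zinc carrier of intracellular membranes, had 5 interactions with 317 contacts (283 to 354) in sham and 4 with 364 (328 to 403) at day 6, log2 -0.89 (-1.12 to -0.68). Most of these contacts join it to Spi1, which encodes PU.1, the lineage factor of macrophages and microglia. The bin of the promoter printed above was joined to a Spi1 bin 20 kb away by 162 contacts in sham and 181 at day 6, and to the next Spi1 bin by 59 and 54. These 2 pairs are in both lists, with observed over expected values of 1.80 and 1.89 for the first and 2.25 and 2.43 for the second. Contacts of Slc39a13 with Nr1h3, the gene of the cholesterol sensor LXR alpha, were called in sham alone, with 21 and 24. Slc39a10 and Slc39a2, named after their values were seen, each kept 1 pair across the lists, of 17 and 17 contacts and of 47 and 46.

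The iron carriers differed from one another. Slc40a1, ferroportin, on chr1:45908070-45926532, had 110 contacts (90.4 to 133) in each library, on 2 interactions in sham and 3 at day 6. As a share of all called contacts this is a log2 ratio of -1.05 (-1.49 to -0.70), fewer by the rule of size, but it was -0.00 scaled by the shared interactions and turned to 0.66 scaled by modelled contacts. The gene was joined in both lists to chr1:45860001-45870000, a bin without a protein-coding gene 60 kb away, by 48 contacts in sham and 41 at day 6. An interaction of 62 contacts with Wdr75 was called in sham alone. At day 6 alone, 32 contacts joined another bin of the gene to chr1:45860001-45870000, at 50 kb. A further 37 joined the gene to a bin 30 kb away. The bin chr1:45860001-45870000 thus had 48 contacts in sham and 73 at day 6. Relative coverage of the anchor bin common to both lists was 1.66 and 1.75.

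Slc11a1 (NRAMP1), which pumps iron and manganese out of the phagosome of macrophages, had 2 interactions with 63 contacts in sham and 8 with 163 at day 6, log2 0.26 (-0.15 to 0.72). Its 2 bins went opposite ways: the start-site bin, which also touches Catip, had 38 contacts in sham and 14 at day 6, and the other bin 25 and 149. The pair of Slc11a1 with Arpc2, a subunit of the actin-branching complex, had 25 contacts in each library. Slc11a2 (DMT1), which carries iron out of the endosome, had 3 interactions with 49 contacts (36.3 to 64.8) in sham and 11 with 236 (207 to 268) at day 6, log2 1.12 (0.72 to 1.64). None of its pairs was shared, although Larp4 was a partner in both lists with 19 and 21 contacts. At day 6 alone it was joined to Dip2b by 23, 18 and 19 contacts and to bins without a gene 40 kb away by 37 and 26.

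Interactions on transporter genes as a whole numbered 128 with 3732 contacts in sham and 357 with 9362 at day 6, each interaction counted once. They made up 0.672% of sham interactions and 0.832% of day 6 interactions. Their ratio was 2.79, beside 2.25 for the whole lists, and that of contacts 2.51, beside 2.14. The whole lists are not a matched background, as they include interactions without a coding gene at an end. Interactions with coding genes at both ends were 59.4% of the whole sham list and 65.2% of the whole day 6 list. The same pair of bins was called in both libraries for 28, which is 21.9% of the sham interactions (exact binomial interval 15.1 to 30.0) and 7.84% (5.27 to 11.1) of those at day 6. In the whole lists these shares were 24.6% and 10.9%. No pair was common to both libraries in 25 of the 42 genes present in both (59.5%, beside 54.7% of all such genes). In 3, Slc7a5, Slc7a11 and Slc39a2, every sham pair was also called at day 6 (7.14%, beside 6.86%).

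The median distance was 130 kb in sham and 200 kb at day 6 on transporter genes, beside 140 and 160 kb in the whole lists. Interactions of 1 Mb or more were 3.13% (0.858 to 7.81) in sham and 8.96% (6.21 to 12.4) at day 6, beside 2.71% and 9.58%. Of the interactions that leave the gene, 28.5% (20.7 to 37.3) in sham and 23.3% (18.8 to 28.2) at day 6 ended in a bin without a protein-coding gene. Interactions with both ends on the same gene were 7 in sham, in 5 genes, and 30 at day 6, in 16 genes. The last 2 kinds of count were not made over all genes, and the day 6 list held 2.25 times as many interactions. They are therefore not a result about the transporter genes. For relative coverage of the anchor bins common to both lists, the median log2 ratio was 0.08 over 41 transporter genes and 0.11 over 8704 genes. Single transporter genes ranged from -0.53 for Slc2a7 to 0.80 for Slc39a7. As coverage is relative to the mean of each library, the median does not show how much single genes differ.

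Genes that partner or regulate the transporters were counted in a list of 38, and 28 of them were measured. By the rule of size 6 had more contacts at day 6 (21.4%, beside 39.1% of all measured genes) and 2 fewer (7.14%, beside 10.3%), with a median log2 ratio of 0.27, beside 0.55 for all measured genes. Those with more were Bsg and Emb, the chaperones that bring Slc16a carriers to the membrane, the hexokinase gene Hk1, Trib3, a target of ATF4, and Aco1 and Pcbp2, which encode an iron sensor and an iron chaperone. Bsg had none in sham and 100 contacts at day 6, and Pcbp2 had 22 and 259, log2 2.30. Those with fewer were Hif1a, the hypoxia factor, with 59 contacts and 37, log2 -1.60, and Hmox1, the haem oxygenase, with 158 and 109, log2 -1.58. Slc3a2, the heavy chain that Slc7a carriers need, had 224 and 295 contacts, log2 -0.69, and the ferritin heavy chain Fth1 had 326 and 351, log2 -0.98. Atf4, Mtf1, the zinc sensor, and Nfe2l2, the antioxidant factor NRF2, had ratios of 0.86, 0.75 and 0.23, between the limits.

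**Figure D4:**
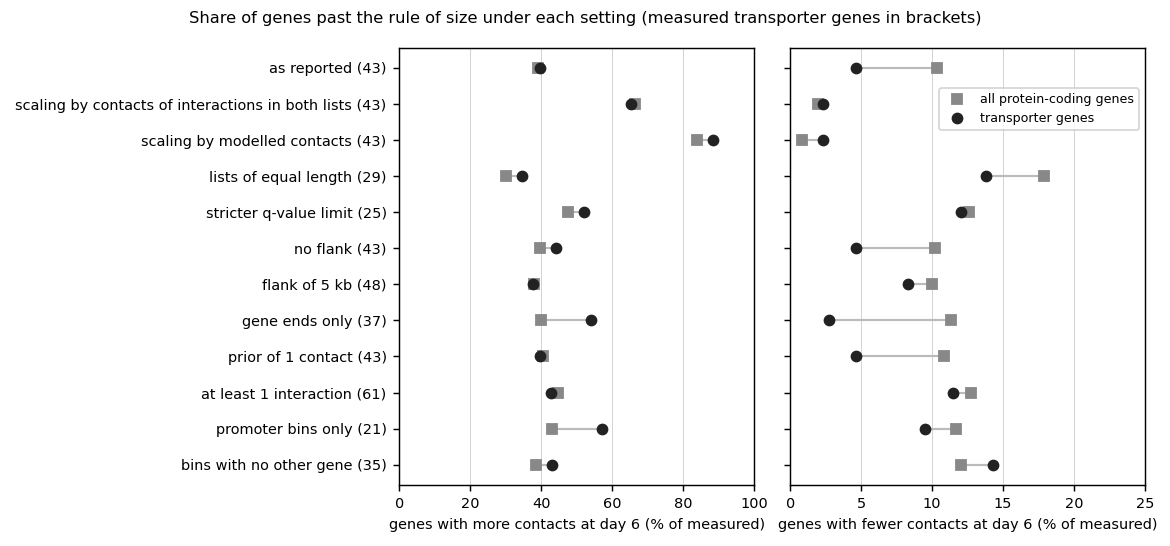
Share of measured genes with more contacts (left) and fewer contacts (right) at day 6, in percent, for the transporter genes (circles) and all protein-coding genes (squares) under each setting; the number of transporter genes measured is in brackets. The circles move with the squares, from 34.5% with lists of equal length to 88.4% scaled by modelled contacts, and lie farthest above them when only gene ends (54.1% beside 40.0%) or promoter bins (57.1% beside 43.1%) are counted.

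Counting only the bins around the gene ends or start sites, the share with more contacts was above that of all genes. With gene ends, 20 of 37 measured transporter genes (54.1%) had more, beside 40.0% of all genes; with promoter bins, a setting chosen after seeing the data, 12 of 21 (57.1%) had more, beside 43.1%. Slc16a1 was no longer measured in either, with 1 sham interaction of 34 contacts and none at day 6. Neighbouring genes share the 10 kb bins of 29 of the 61 genes with any interaction, and for these a contact cannot be assigned to 1 gene; in bins with no other gene, 15 of 35 measured had more (42.9%, beside 38.5% of all genes) and 5 fewer (14.3%, beside 12.03%).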

How the data were processed

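HiChIP of H3K27ac was measured in 1 sham library and 1 day 6 library of sorted microglia. The authors deposited, for each library, a list of called interactions between 10 kb bins, 20 kb to 2 Mb apart, all with a q-value under 0.001. Per the file headers each row gives the contact count, the coverage count of both bins, a bias column holding a ratio (coverage of a bin relative to the mean), the bias probability as a fraction, and the contact count expected by the model. The submitters' processing notes name HiC-Pro 3.1.0 and mm10; the sources used here name no interaction caller. Genes, promoters and sequences were taken from RefSeq on GRCm38.p6, a release of the same build.

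Contacts were summed per gene and library with Python 3.11.15, pandas 2.3.3 and scipy 1.17.1. The fold was the log2 ratio of shares of called contacts after adding 5 contacts, in proportion to library size, to each sum. Exact Poisson intervals (95%) were given for sums and exact binomial intervals for ratios and shares. With 1 library per group no test was made, and a read pair is not an independent cell. The summing was checked against a direct comparison of positions for randomly drawn genes, and the log2 ratio on simulated contact sums of known fold. No interaction list was simulated. Values are printed for Slc11a1, Slc11a2 and Slc40a1, the 3 genes with most contacts in each family, those farthest past the rule of size in both lists, those absent from 1 list with the most contacts, and genes joined to another gene of the set; other genes are said to be named after their values were seen. The genes, lists and tests were chosen with earlier results of these data known. Alternatives were other scalings, list lengths, q-value limits, flanks, priors and minimum numbers of interactions. A few genes are counted but not reported by name here.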

Additional observations from a re-analysis of the deposited data

How the results depend on the processing

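Under the alternatives the 17 genes with more contacts, the 2 with fewer and the median of 0.59 moved as follows. Scaling by shared interactions gave 28, 1 and 1.65, and scaling by modelled contacts 38, 1 and 2.32, with Slc40a1 turned from -1.05 to 0.66. With lists of equal length 10 had more and 4 fewer, and 16 of the 28 interactions in both lists were left. At the stricter q-value limit of 1e-05 the median was 1.17, 27 genes were in the sham list and 12 interactions were shared. A flank of 5 kb gave 4 genes with fewer contacts. Gene ends gave 1 with fewer, a median of 1.31 and 18 shared interactions. A minimum of 1 interaction gave 26 with more and 7 with fewer. Chosen after seeing the data, promoter bins gave a median of 1.65, with 21 genes in the sham list, 36 in the day 6 list and 12 shared interactions, and bins with no other gene gave 5 with fewer. Allowing anchors to differ by 1 bin matched 62 of the 128 sham interactions. Other causes of these moves were not tested. Of 313 values of the 33 named genes under alternatives, 197 counted as same, 115 as moved and 1 as reversed. Same means inside the counting interval or, for genes with no sham interaction and so no interval, a ratio of at least 1 or at most -1. A reversal was counted only for genes past the rule of size. Sign changes of other genes were not counted as reversals, such as Slc7a7 from -0.55 to 0.53 scaled by shared interactions. No paired analysis was possible because each group has 1 library. Library number and list length limit what these counts can show.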
